A study of Mus musculus with 6 samples.

Results

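Alveolar fibroblast identity genes are genes whose transcripts mark the fibroblasts that lie in the walls of the gas-exchanging alveoli and support the alveolar epithelium. The 10 described here, Pdgfra, Tcf21, Npnt, Inmt, Ces1d, Limch1, Fgfr4, Gpc3, Slc7a10 and Macf1, were chosen by symbol, and each symbol had 1 row among the 29322 genes of the authors' deposited table. RNA was sequenced in bulk from 3 Yeti+/- and 3 wild-type samples of lung mesenchymal cells from adult mice, the wild-type samples being titled Yeti Control. The Yeti allele of Ifng, which encodes the cytokine interferon-gamma (IFN-γ), is a gain-of-function allele, and the label gives it as heterozygous. Flow sorting kept cells without CD45 (a leukocyte protein), CD31 (endothelial) or Epcam (epithelial) and left out dead cells, which take up DAPI. The labels give tamoxifen injection for all 6 samples and name no allele that it acts on, and the extraction protocol speaks of cultured cells. The files hold the authors' comparison of Yeti over wild-type with no value per library, so each level below is a group level fitted from the mean and the fold change, printed with no spread of its own. Nothing in the labels says that the 3 samples of a group came from separate mice, so p-values measure the spread between samples, which may be technical.

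The alveolar fibroblast is one of several fibroblast types of the lung. It carries the receptor for platelet-derived growth factor A, depends on the mesenchymal transcription factor Tcf21 in development, stores neutral lipid in its lipofibroblast form and lays down matrix that integrins of neighbouring cells bind. IFN-γ acts through its receptor and the kinases Jak1 and Jak2 and induces, among others, the transcription factor gene Irf1 and the antigen presentation gene B2m, in part through a palindromic promoter element, the gamma-activated sequence.

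None of the 10 alveolar fibroblast genes passed the test in Yeti mesenchyme, which does not show that their levels equalled those of wild-type. Of the 10 genes in the authors' deposited table, 0 had an adjusted p under 0.05 (DESeq2 Wald test, Benjamini-Hochberg), and 0 had an unadjusted p under 0.05, the smallest being 0.349. An unadjusted p under 0.05 was reached by 9.28% of all genes tested. The same comparison called 2.84% of all genes tested, 1.85% as higher and 0.994% as lower in Yeti, and 3.63% of the 2095 genes at least as abundant as Slc7a10, the least abundant of the 10, so none of 10 is near that background. Their log2 fold changes in the authors' deposited table ran from -0.26 for Inmt to 0.25 for Tcf21, with 2 above 0 and 8 below. The median was -0.11, beside -0.00092 over the 20212 genes with an adjusted p and 0.027 over the 2095 abundant genes. The fitted levels of the 10 genes summed to 379335 normalized counts in Yeti and 408120 in wild-type, and the genes made up 1.48% of all normalized counts over both groups. In bulk RNA, fewer cells of a type and less RNA per cell cannot be told apart.

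Interferon-inducible genes were higher in the same Yeti libraries. Irf1, a transcription factor gene induced by IFN-γ, had fitted levels of 12775 normalized counts in Yeti and 3231 in wild-type, and its log2 fold change of 1.98 ± 0.27 (SE) was a rise with an adjusted p of 3.48e-11 (DESeq2) per the authors' deposited table. B2m, the light chain of class I molecules, rose by 2.13 ± 0.16 per the authors' deposited table, with fitted levels of 94324 in Yeti and 21536 in wild-type. Ifng itself had fitted levels of 24.4 in Yeti and 14.9 in wild-type, with a log2 fold change of 0.71 ± 0.55 in the authors' deposited table that did not pass (adjusted p = 0.919). Ifng ranked 16022 of 29322 genes by mean, and its level in the CD45 cells that the sort left out was not measured. The intervals of the 10 alveolar fibroblast genes all lay below those of Irf1 and B2m.

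**Figure D1:**
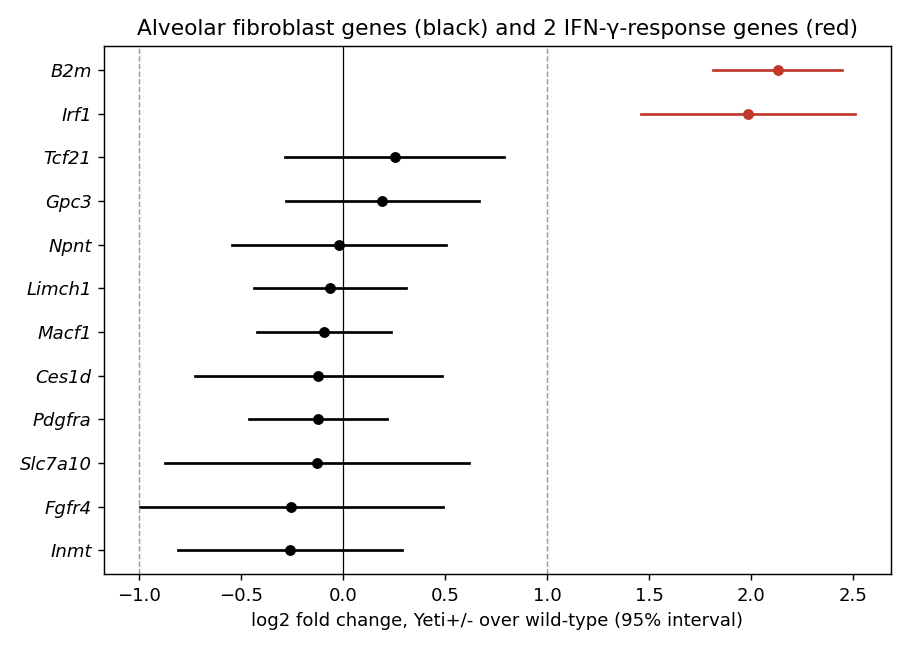
Log2 fold change of Yeti over wild-type (points) with its 95% interval (lines) for the 10 alveolar fibroblast genes in black and for B2m and Irf1 in red. Dashed lines mark a 2-fold change; all 10 black intervals cross 0 and lie inside the dashed lines, while the 2 red points lie at 2.13 and 1.98.

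What the data allow for each gene is given by its 95% interval. All 10 intervals, the fold change in the authors' deposited table plus or minus the normal quantile times its standard error, contained 0 and lay within a 2-fold change in either direction, and 4 of 10 lay within 1.5-fold. With the wider quantile of a t distribution with 4 degrees of freedom, 6 of 10 lay within 2-fold and 1 within 1.5-fold. Macf1 and Pdgfra had the narrowest intervals, and Slc7a10 and Fgfr4, the least abundant of the 10, the widest. The largest unadjusted p called in the authors' deposited table was 0.00142, and at that limit a log2 fold change of 0.54 for Macf1 and of 1.22 for Slc7a10 would have been the smallest to pass. Smaller changes in these genes were not detectable here. All 10 intervals shared the stretch from -0.28 to 0.21 on the log2 scale.

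The proximal promoters of the 10 genes were searched for the letters of interferon elements and of an E-box, beside all promoter windows. Irf1 and B2m were picked as examples of responding genes. Shares over all genes that rose were not counted, so the 10 genes were not compared with responders as a group. RefSeq windows of 250 bases before the start (GRCm38.p6) were found for 9 of the 10 genes, 12 windows in all, and Ces1d had none. TTCNNNGAA, the gamma-activated sequence, which reads alike on both strands, was in 0 of the 12 windows and in 7.02% of all 32851 windows. The core of the interferon-stimulated response element, searched as GAAA and GAAA with 2 bases of any kind between them on either strand, was in 0 of 12 windows and in 2.98% of all windows. CAGCTG, an E-box of the kind that basic helix-loop-helix factors such as Tcf21 bind, also a palindrome, was in 1 of 12 windows and in 13.0% of all windows. With shares this low, windows without the letters are the common case, and a match describes letters only. Below are the windows of Pdgfra and of Inmt, the receptor gene and the most abundant of the 10, beside those of the responders Irf1 and B2m, each 5′ to 3′ on the gene's strand, with these motifs in capitals. They lie at chr5:75152001-75152250 (plus strand), chr6:55174991-55175240 (minus), chr11:53769764-53770013 (plus) and chr2:122147437-122147686 (plus). Inmt holds the E-box 14 to 9 bases before its RefSeq start. The GENCODE gene, given below, reaches to 55175043 and so covers that E-box. Irf1 holds the gamma-activated sequence 90 to 82 bases and an E-box 139 to 134 bases before its start, in the first of its 2 windows, and B2m the response element core 139 to 130 bases before its start.
Pdgfra: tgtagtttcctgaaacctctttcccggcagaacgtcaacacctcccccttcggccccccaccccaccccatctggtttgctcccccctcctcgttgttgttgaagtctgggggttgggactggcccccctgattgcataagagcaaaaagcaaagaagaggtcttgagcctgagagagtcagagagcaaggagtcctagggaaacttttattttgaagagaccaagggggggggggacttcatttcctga
Inmt: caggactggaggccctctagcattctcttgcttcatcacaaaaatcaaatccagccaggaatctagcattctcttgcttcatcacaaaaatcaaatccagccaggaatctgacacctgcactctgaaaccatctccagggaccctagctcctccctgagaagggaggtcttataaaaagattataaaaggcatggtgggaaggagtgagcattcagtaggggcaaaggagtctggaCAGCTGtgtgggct
Irf1: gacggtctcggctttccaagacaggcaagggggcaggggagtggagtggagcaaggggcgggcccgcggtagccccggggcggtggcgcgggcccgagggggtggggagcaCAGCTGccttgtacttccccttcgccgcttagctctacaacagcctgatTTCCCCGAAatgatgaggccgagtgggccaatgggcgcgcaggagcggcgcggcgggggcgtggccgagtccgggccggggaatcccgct
B2m: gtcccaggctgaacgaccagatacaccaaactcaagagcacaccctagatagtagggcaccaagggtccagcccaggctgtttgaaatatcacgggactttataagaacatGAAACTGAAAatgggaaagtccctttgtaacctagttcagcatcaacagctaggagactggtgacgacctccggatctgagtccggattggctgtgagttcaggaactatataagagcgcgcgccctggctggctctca

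Growth factor receptors come first among the 10 by role. Pdgfra, the receptor tyrosine kinase for platelet-derived growth factor A (ENSMUSG00000029231, GRCm38 chromosome 5, 75152292 to 75198215, plus strand), had fitted levels of 35088 normalized counts in Yeti and 38227 in wild-type. Its log2 fold change in the authors' deposited table was -0.12 ± 0.17 (SE), with an interval from -0.46 to 0.21, so the Yeti level was 0.918 times that of wild-type, with 0.726 to 1.16 allowed. Fgfr4, a receptor for fibroblast growth factors (ENSMUSG00000005320, chromosome 13, 55152640 to 55168759, plus strand), was about an order of magnitude less abundant, at 3313 in Yeti and 3949 in wild-type. Fgfr4 stood at -0.25 ± 0.38 in the authors' deposited table, and its interval, from -0.996 to 0.49, was the one that came nearest to a 2-fold decrease. Neither receptor differed between the groups by more than its standard error.

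None of the ligands and related receptors of both families passed. Of 6 genes of the PDGF family, 0 passed in the authors' deposited table, with a median of 0.02 and 1 higher at an unadjusted p under 0.05. Pdgfb, a ligand gene of endothelial cells and platelets, stood at 1.01 ± 0.39 in the authors' deposited table, with fitted levels of 281.4 in Yeti and 140.0 in wild-type (adjusted p = 0.208). Pdgfd, a ligand of the second receptor, stood at 0.58 ± 0.31 and that receptor, Pdgfrb, at -0.15 ± 0.22 in the authors' deposited table. Of 11 tested genes of FGF receptors, co-receptors and ligands, 0 passed in the authors' deposited table, with a median of -0.11 and 1 higher at an unadjusted p under 0.05, Fgfr2 (0.48 ± 0.24). Fgfr1, the most abundant receptor of that list, stood at 0.09 ± 0.13, and Fgf10, a ligand made by lung mesenchyme that acts on the epithelium, at -0.14 ± 0.13 in the authors' deposited table. Klb, the co-receptor through which Fgfr4 binds the hormone Fgf15 in mouse liver, was near the detection limit, with fitted levels of 6.08 in Yeti and 6.70 in wild-type; it was chosen after its values were seen.

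The transcription factor gene Tcf21 did not pass, while 2 genes of its inhibitors did. Tcf21, a basic helix-loop-helix factor of lung, heart and kidney mesenchyme (ENSMUSG00000045680, chromosome 10, 22817281 to 22820174, minus strand), had fitted levels of 6987 normalized counts in Yeti and 5864 in wild-type. Its log2 fold change of 0.25 ± 0.27, the highest of the 10 in the authors' deposited table, had an interval from -0.28 to 0.79 (unadjusted p = 0.356). Factors of this class act as dimers with E proteins and are held off DNA by the Id proteins, which pair with E proteins and lack a DNA-binding region. Of 11 such partners, inhibitors and relatives, 0 fell and 2 rose per the authors' deposited table, and both were Id genes. At an unadjusted p under 0.05, 3 were higher, these 2 and the low-abundance Tcf15 (0.92 ± 0.40, DESeq2 adjusted p = 0.341). Id3, the most abundant of that list, had fitted levels of 13843 in Yeti and 7623 in wild-type and rose by 0.86 ± 0.26 (DESeq2, adjusted p = 0.0336), and Id2 by 0.74 ± 0.20 (adjusted p = 0.00921), both per the authors' deposited table. The median of the list was -0.13. The Id genes are expressed in many cell types, endothelium among them, and which cells carried their rise was not tested.

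Matrix and cell surface genes followed. Npnt encodes nephronectin, a basement membrane ligand of the integrin of the alpha 8 chain (ENSMUSG00000040998, chromosome 3, 132881745 to 132950291, minus strand). It had nearly equal fitted levels of 52496 normalized counts in Yeti and 53197 in wild-type, with a log2 fold change of -0.02 ± 0.27 and an interval from -0.54 to 0.51 in the authors' deposited table. None of 7 genes of its receptor and partner proteins passed in the authors' deposited table, and 0 had an unadjusted p under 0.05, with a median of -0.20. Itga8, the receptor chain and the most abundant of them, stood at -0.20 ± 0.26, with fitted levels of 22998 in Yeti and 26472 in wild-type. The low-abundance Frem2 (-0.95 ± 0.49) and Egfl6 (-0.86 ± 0.46), matrix proteins of basement membranes, had the smallest p of that list in the authors' deposited table.

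Gpc3, a glypican that carries heparan sulfate on the cell surface (ENSMUSG00000055653, chromosome X, 52272426 to 52613950, minus strand), was with Tcf21 the other gene above 0. Fitted levels were 30682 normalized counts in Yeti and 26851 in wild-type, and the fold change in the authors' deposited table was 0.19 ± 0.24 with an interval from -0.28 to 0.66. Among 9 tested glypicans, syndecans and the glypican-cleaving Notum, 0 fell and 1 rose per the authors' deposited table, with a median of -0.03. Sdc3, a syndecan, rose by 0.78 ± 0.19, with fitted levels of 2097 in Yeti and 1224 in wild-type (DESeq2, adjusted p = 0.00341 in the authors' deposited table). Sdc4, the most abundant of the list, stood at 0.52 ± 0.25 and Sdc1 at -0.54 ± 0.19, neither of which passed per the authors' deposited table (adjusted p of 0.448 for Sdc4 and 0.106 for Sdc1).

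The enzyme genes held the most abundant of the 10. Inmt, which methylates indole amines such as tryptamine (ENSMUSG00000003477, chromosome 6, 55170626 to 55175043, minus strand), ranked 10 of all genes by mean. Fitted levels were 99837 normalized counts in Yeti and 119751 in wild-type, and its fold change, the lowest of the 10 in the authors' deposited table, was -0.26 ± 0.28 with an interval from -0.81 to 0.29. Other methyltransferases of small molecules and the enzymes of their methyl donor did not share 1 direction. Of 7 tested, Nnmt, which methylates nicotinamide, rose by 0.67 ± 0.15 (DESeq2, adjusted p = 8.75e-04) and Pnmt, which makes adrenaline from noradrenaline, fell by 1.51 ± 0.35 (adjusted p = 0.00129), both per the authors' deposited table. Pnmt was low, at 38.5 in Yeti and 109.2 in wild-type. Mat2a, which makes the methyl donor and was the most abundant of the list, stood at -0.28 ± 0.17, and the median of the list was -0.17.

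Ces1d, a carboxylesterase that hydrolyses triglycerides and other esters (ENSMUSG00000056973, chromosome 8, 93166068 to 93197838, minus strand), had fitted levels of 7154 normalized counts in Yeti and 7780 in wild-type. It stood at -0.12 ± 0.31 in the authors' deposited table, with an interval from -0.72 to 0.48. Ces1d belongs to a cluster of similar genes among which the authors' counting could split reads. The other members with a row were low, with Ces1f at 10.5 in Yeti and 20.1 in wild-type and Ces1g at 15.3 in Yeti and 8.49 in wild-type, while Ces1a, Ces1b and Ces1e had no adjusted p. Of 7 tested carboxylesterases and lipases 0 passed in the authors' deposited table and 0 had an unadjusted p under 0.05, and the lipase gene Pnpla2, the most abundant, stood at 0.13 ± 0.14.

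Slc7a10, a transporter of small neutral amino acids (ENSMUSG00000030495, chromosome 7, 35186385 to 35201114, plus strand), was the least abundant of the 10. Its fitted levels were 2477 normalized counts in Yeti and 2707 in wild-type, with a fold change of -0.13 ± 0.38 and an interval from -0.87 to 0.62 in the authors' deposited table. Of its exonic bases, 17.9% overlap exons of Lrp3 on the opposite strand, and since no strand setting is given, reads there cannot be told apart. Lrp3 had a mean of 1651 normalized counts and stood at 0.02 in the authors' deposited table. None of 10 amino acid transporter genes passed in the authors' deposited table and 0 had an unadjusted p under 0.05. Slc3a2, the heavy chain with which Slc7a10 pairs, stood at 0.36 ± 0.21, Slc7a5 at -0.33 ± 0.33 and the abundant Slc1a5 at -0.11 ± 0.14 per the authors' deposited table.

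The cytoskeletal genes had narrow errors. Limch1, which activates non-muscle myosin II (ENSMUSG00000037736, chromosome 5, 66745827 to 67057158, plus strand), had fitted levels of 40348 normalized counts in Yeti and 42180 in wild-type, and stood at -0.06 ± 0.19 in the authors' deposited table, with an interval from -0.44 to 0.31. Macf1, a giant linker of actin and microtubules (ENSMUSG00000028649, chromosome 4, 123349633 to 123684360, minus strand), had 100953 in Yeti and 107614 in wild-type. Its fold change of -0.09 ± 0.17, with an interval from -0.42 to 0.24, had the smallest standard error of the 10 in the authors' deposited table. Of 11 genes of actomyosin and cytoskeletal linkers, 0 passed in the authors' deposited table, with a median of 0.04 and 1 higher at an unadjusted p under 0.05, the myosin light chain gene Myl12a (0.29 ± 0.09, adjusted p = 0.0733). Myh10, a heavy chain of non-muscle myosin II and the most abundant of that list, stood at -0.20 ± 0.20.

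**Figure D2:**
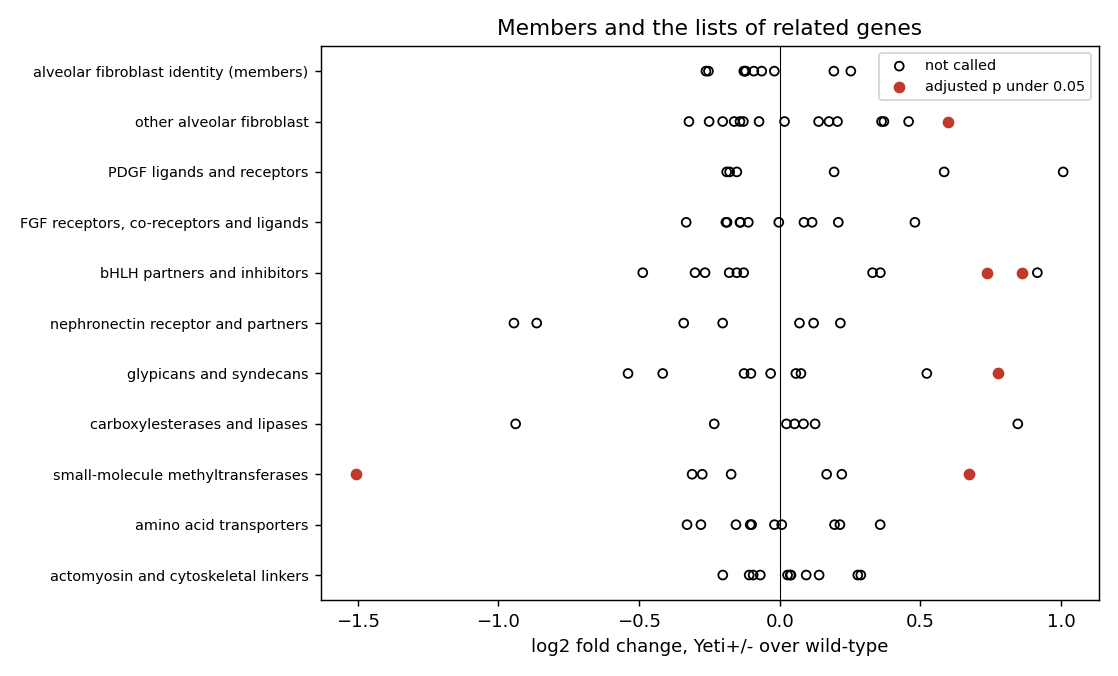
Log2 fold change of Yeti over wild-type for each tested gene, with the 10 alveolar fibroblast genes on the top row and the 10 lists of related genes under it. Filled red points have an adjusted p under 0.05; the top row holds 0 of them and spans -0.26 to 0.25.

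Per length, the 10 genes spanned a 66.9-fold range. Over both groups Inmt had 68621 normalized counts per kb of exon, Gpc3 10694 and Npnt 10515, and Slc7a10 and Fgfr4 were lowest at 1228 and 1025. Limch1, Pdgfra, Macf1, Ces1d and Tcf21 lay between 4021 and 2736 per kb. In both groups Inmt was the highest and Fgfr4 the lowest per kb. Gpc3 had 11406 per kb and Npnt 10445 in Yeti, against 9982 for Gpc3 and 10584 for Npnt in wild-type, and these were the only neighbours in the order to change places. Of the 9 pairs of neighbours, those from Limch1 to Tcf21, Gpc3 with Npnt, and Slc7a10 with Fgfr4 differed by less than their combined coefficient of variation between libraries. Inmt stood 6.42-fold above Gpc3, Npnt 2.62-fold above Limch1 and Tcf21 2.23-fold above Slc7a10, gaps larger than that spread. Exon length is that of all annotated exons joined, which understates the level of genes with many isoforms, such as Limch1 with 18 transcripts and Macf1 with 16.

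**Figure D3:**
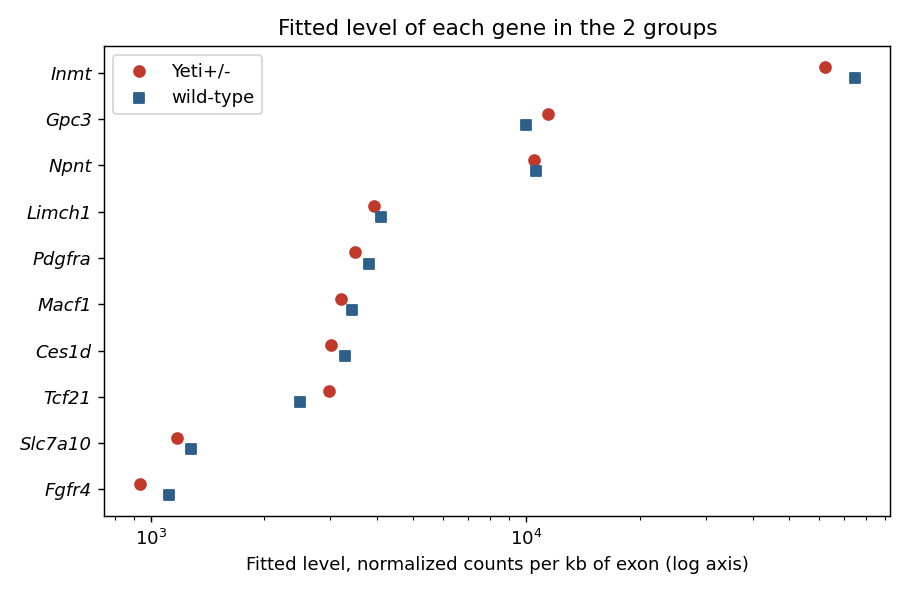
Fitted level per kb of exon, on a log axis, of each of the 10 genes in Yeti (red circles) and wild-type (blue squares), sorted by the mean over both. The 2 symbols of each gene lie close together beside the 66.9-fold range between genes, with Tcf21 and Gpc3 the genes whose Yeti symbol is to the right.

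By raw abundance 6 of the 10 ranked among the first 100 genes and 8 among the first 1000. The rank was 10 for Inmt, 13 for Macf1, 41 for Npnt, 59 for Limch1, 65 for Pdgfra and 82 for Gpc3. The genes of the 3 proteins used to gate cells out were lower per length than Pdgfra, which had 3657 normalized counts per kb over both groups. Epcam had 44.5 per kb, Pecam1, which encodes CD31, 205.3 and Ptprc, which encodes CD45, 266.0. Some other transcripts of the gated-out cell types were above Pdgfra, with 7129 per kb for the plasma cell gene Jchain, 6178 for the airway epithelial gene Scgb1a1 and 6085 for the myeloid lysozyme gene Lyz2.

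**Figure D4:**
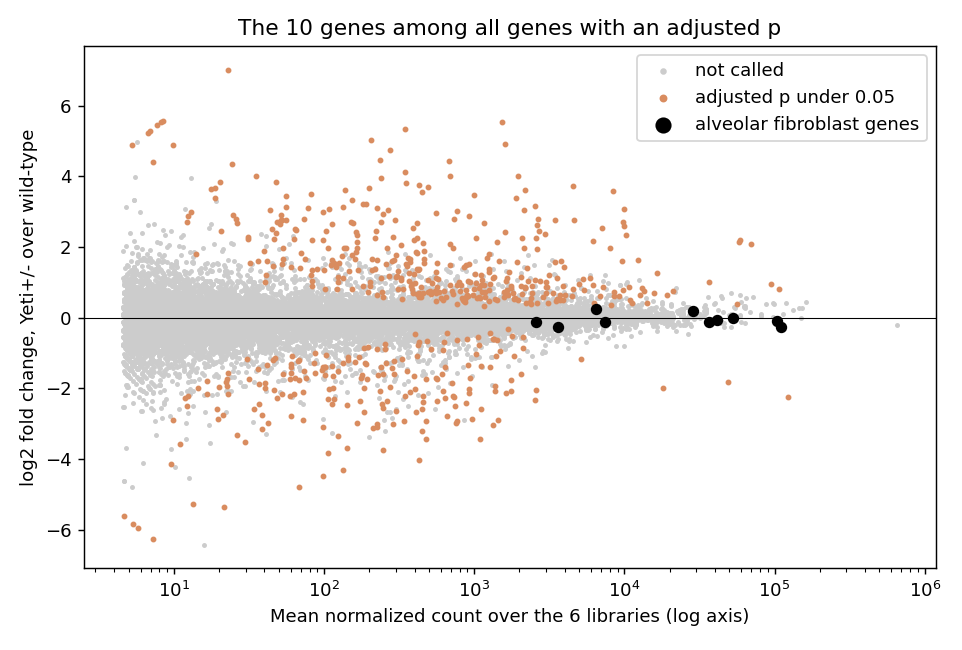
Log2 fold change of Yeti over wild-type against mean normalized count (log axis) for the 20212 genes with an adjusted p. Orange points have an adjusted p under 0.05, and the 10 alveolar fibroblast genes (black) lie near 0 at the abundant end.

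The 10 genes varied more between libraries of a group than most genes at least as abundant as Slc7a10, the least abundant of them. Those genes were not matched in abundance to each of the 10. A coefficient of variation, derived from the standard error in the authors' deposited table, which rests on DESeq2's moderated dispersion, ran from 0.142 for Macf1 to 0.323 for Slc7a10. The median over the 10 genes was 0.230, beside 0.127 over the 2095 genes at least as abundant, and all 10 lay above that median. Macf1 lay at percentile 59.8 of those genes, Pdgfra at 62.2, Limch1 at 70.3, Inmt at 90.3, and Fgfr4 and Slc7a10 at 96.6 and 96.8. Lists that also hold less abundant genes had medians of 0.189 for 15 other alveolar fibroblast genes, 0.224 for 12 adventitial fibroblast markers and 0.504 for 6 mesothelial markers, beside 0.207 over all genes with an adjusted p. No test of these differences was made, and the part of cell makeup in them was not tested.

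**Figure D5:**
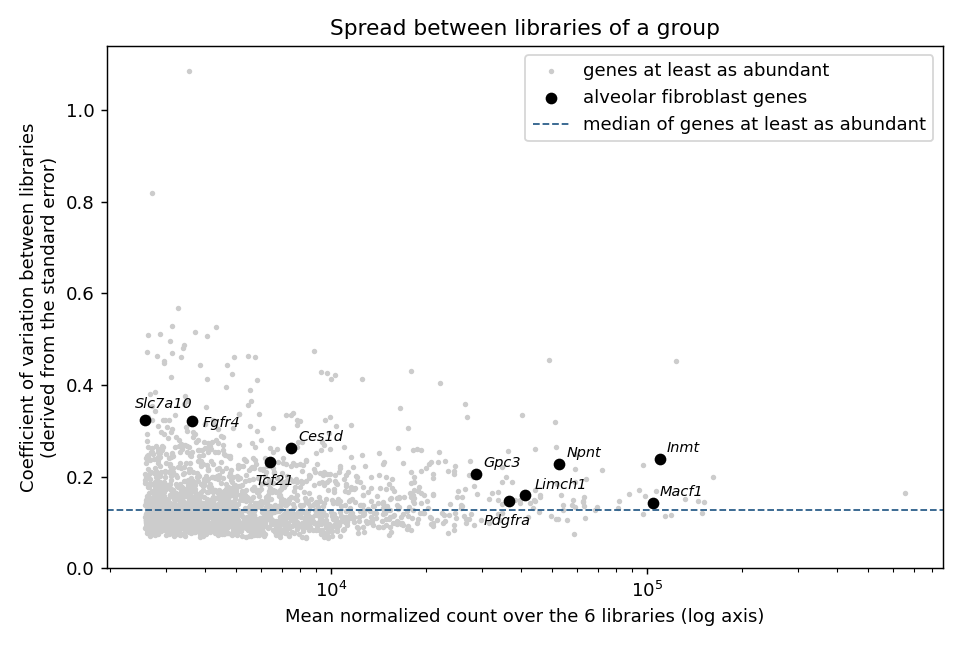
Coefficient of variation between libraries of a group, derived from the standard error, against mean normalized count (log axis) for the 2095 genes at least as abundant as Slc7a10. All 10 alveolar fibroblast genes (black) lie above the dashed median of 0.127.

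Further alveolar fibroblast genes showed 1 change. Of 15 that are not among the 10, 0 fell and 1 rose per the authors' deposited table, with a median of 0.02 and a range from -0.32 to 0.60. Plin2, which coats lipid droplets, rose by 0.60 ± 0.19, with fitted levels of 3445 normalized counts in Yeti and 2277 in wild-type (DESeq2, adjusted p = 0.0475 in the authors' deposited table). When the adjustment ran over every gene that had a p-value, Plin2 did not pass (adjusted p = 0.0688). Cxcl14, a chemokine gene, stood at 0.46 ± 0.19 in the authors' deposited table with an adjusted p of 0.290. Over the 92 tested genes of the 10 related lists together, 5 rose and 1 fell per the authors' deposited table, 6.52% of them. The share over all genes tested was 2.84%, and the difference was not tested, since the lists were chosen with earlier results known.

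Some markers of adventitial fibroblasts and of smooth muscle and myofibroblasts passed, and most endothelial markers fell. The same comparison called 2.84% of all genes tested, 1.85% as higher and 0.994% as lower in Yeti. Among 12 markers of adventitial fibroblasts, Ly6a (1.11 ± 0.20) and Ly6c1 (0.97 ± 0.27) rose and 0 fell, with a median of 0.03, per the authors' deposited table. Their summed fitted level was 168237 in Yeti and 176090 in wild-type, and Dcn, a matrix proteoglycan gene and the most abundant, stood at -0.27 ± 0.31. Of 10 smooth muscle and myofibroblast markers, 1 fell (Aspn, -0.55 ± 0.13) and 0 rose per the authors' deposited table, and of 8 pericyte and 6 mesothelial markers, 0 passed, with 0 at an unadjusted p under 0.05. The smooth muscle genes Acta2 (0.40 ± 0.39) and Tagln (0.51 ± 0.39) did not pass per the authors' deposited table. Tagln was low, with fitted levels of 95.4 in Yeti and 67.1 in wild-type, against 45750 and 34555 for Acta2. The pericyte genes Rgs5 (-0.83 ± 0.48) and Cspg4 (0.34 ± 0.37) did not pass either. The same held for the mesothelial genes Upk3b (-0.47 ± 0.62) and Upk1b (0.19 ± 0.31). Of 9 endothelial markers, 6 fell and 0 rose per the authors' deposited table, and their summed fitted level was 3890 in Yeti and 6499 in wild-type. The smallest p were those of Mmrn1 (-2.91 ± 0.26) and Prox1 (-2.22 ± 0.33). Pecam1, the most abundant of that list, stood at 0.25 ± 0.46 and did not pass, with fitted levels of 1391 in Yeti and 1167 in wild-type. Of 8 leukocyte markers, the antibody joining chain gene Jchain fell (-1.98 ± 0.51) and 0 rose per the authors' deposited table, with fitted levels of Jchain of 7247 in Yeti and 28640 in wild-type. The list's median was 0.34, and 2 of its genes were higher at an unadjusted p under 0.05, the macrophage gene Cd68 (0.96 ± 0.45) and the cytotoxic lymphocyte gene Nkg7 (0.52 ± 0.25) in the authors' deposited table. Of 10 epithelial markers 0 passed in the authors' deposited table, with 2 lower at an unadjusted p under 0.05, Epcam and Scgb1a1. A fitted level is above 0 in both groups for any gene with counts, so it does not show which cell types each group held. The part of these cell types in the levels of the 10 genes was not tested.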

How the data were processed

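Bulk RNA-seq libraries of 3 Yeti+/- and 3 wild-type samples were grouped by sample title. FastQC, STAR and DESeq, without versions, and the builds GRCm38 and mm10 are named per the submitters' processing notes; the counting tool, any strand setting and the annotation release were not given there. The authors deposited 1 table of their comparison. Its mean is a signal, the count divided by size factors and averaged over libraries, per the file headers; the means sum to 26646632, the average depth. The log2 fold change, its standard error, the Wald score and the p-value and adjusted p-value are the authors' DESeq2 values. Of 29322 genes, 20212 had an adjusted p.

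Fitted group levels solve the mean and the fold change for equal groups. Intervals are 95%. Coordinates are from GENCODE M21 on GRCm38. The calling and level steps were tested on simulated data (Python 3.11.15, pandas 2.3.3, SciPy 1.17.1). Named genes were the 10 members, and per list the 2 smallest p-values and the most abundant gene, plus Ifng, Irf1 and B2m; 1 further gene that the rule names is not reported here; Lrp3, Klb, Ptprc, Lyz2, Nkg7 and Ces1a, Ces1b and Ces1e were named after their values were seen. Members and lists were chosen with earlier results of these data known.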

Additional observations from a re-analysis of the deposited data

How the results depend on the processing

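The count of 0 of 10 was the same when p-values were adjusted over every gene that had one. It was also the same over genes with a mean of at least 10 or at least 100. The same held after recentring fold changes on the median of all genes, and with a t distribution with 4 degrees of freedom. An adjusted p cannot be smaller than its unadjusted p, and the smallest of the 10 was 0.349 (DESeq2 Wald test). Other adjustments and the wider t distribution could therefore not have called any of the 10, so the count is no check of them. Only recentring alters the fold changes, and it shifted them by no more than the median of all genes, -0.00092. Their unchanged signs, and their median of -0.11 in each setting, are therefore no check either. With the adjustment over every gene with a p-value, the count of 15 other alveolar fibroblast genes was 0, since Plin2 had an adjusted p of 0.0688; the other list counts, and all of them after recentring, were within 1.5 times. With the t distribution, which ignores what DESeq2 borrows across genes, 0 of all genes passed, against 574 in the authors' deposited table, so that setting cannot separate the 10 from responding genes. No paired analysis was possible because the table holds no values per library, and leaving out replicates was not run for the same reason. Each symbol had 1 row, so no alternative row existed. With 3 libraries a group, differences under 0.54 to 1.22 on the log2 scale, by gene, could not be called.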
